A study of Rattus norvegicus with 8 samples.

Results

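The 10 genes described here encode the core of the insulin-like growth factor (IGF) system: the ligands *Igf1* and *Igf2*, the receptors *Igf1r* and *Igf2r*, and the binding proteins *Igfbp2*, *Igfbp3*, *Igfbp4*, *Igfbp5*, *Igfbp6*, and *Igfbp7*. They were chosen by name among the 32883 Ensembl genes of the deposited table, and each name matched 1 gene. The rule used no values, but earlier results of these data were known when the choice was made. Expression was measured by RNA sequencing of the right Achilles tendon of 8 wild-type male Sprague-Dawley (SD) rats, 8 to 10 weeks old. Of these, 4 ran uphill on a treadmill for 1 hour and were killed 12 hours later (12 hours p.r.), and 4 stayed in their cages without running and were killed at the same time (naïve control, NC). Air puffs and a weak electric stimulus kept the rats running, so the run and these stimuli cannot be told apart in this design. Each library came from 1 rat, and the numbers 1 to 4 of the labels belong to different rats in each group.

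IGF-I and IGF-II are small secreted peptides that act through IGF1R, a receptor tyrosine kinase which signals to the PI3K-AKT and ERK pathways. IGF2R, also the cation-independent mannose 6-phosphate receptor, carries IGF-II and lysosomal enzymes into the cell rather than signaling growth. The binding proteins hold IGFs in the blood and in the matrix, extend their life, and limit or direct their access to the receptor; proteases that cut the binding proteins release the ligand. In tendon, IGF-I is known to stimulate the division of tenocytes and their collagen synthesis.

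Reads counted on genes totaled between 7350509 and 10648648 in the 12 hours p.r. rats and between 8385779 and 12951397 in the NC rats. Tenocyte markers were plentiful, with 8 of 8 listed genes tested and a summed level of 16300 to 48500 CPM (read counts scaled to a common library size) at 12 hours p.r. and 27400 to 40800 CPM in the NC group. Some libraries stood apart in markers of other tissues. Skeletal muscle markers summed to 62200 CPM in 12 hours p.r. replicate 3 and to at most 11100 CPM in any other rat. Cartilage and bone markers summed to 1400 CPM in NC replicate 3 and 530 CPM in 12 hours p.r. replicate 1, against at most 127 CPM elsewhere. The summed leukocyte markers ran from 567 to 2600 CPM at 12 hours p.r. and from 807 to 3790 CPM in the NC group, those of adipocytes from 3210 to 7600 CPM and from 4560 to 8410 CPM, and those of endothelial cells from 1270 to 1560 CPM and from 1340 to 1450 CPM. Pericyte and smooth muscle markers summed to 1760 to 2340 CPM and to 1530 to 2040 CPM, and Schwann cell markers to 254 to 324 CPM and to 218 to 492 CPM. By the sign of the log2 fold change, some lists lay to 1 side. Above 0 at 12 hours p.r. were 9 of 9 tested skeletal muscle genes and 5 of 5 pericyte and smooth muscle genes. Below 0 were 8 of 8 leukocyte genes and 5 of 6 adipocyte genes. Over all genes tested, 7557 of 13937 were above 0. Genes of a list can vary together, so these counts are not independent. In the muscle list 12 hours p.r. replicate 3 stood out, at a mean log2 CPM of 12.5. The other running rats were at 6.24 to 8.26, within the NC range of 5.41 to 9.99. At an unadjusted p value under 0.05, in either direction, stood 3 of 8 tenocyte, 2 of 7 endothelial, 1 of 5 pericyte and smooth muscle, and 1 of 5 Schwann cell genes. This held for 0 of the tested genes of the other lists and for 9.51% of all genes tested. The tenocyte list was split by sign, with 5 genes above and 3 below 0. No gene of these marker lists that the table holds was at 0 in every rat.

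The Achilles tendon held far more mRNA of the binding proteins *Igfbp4* to *Igfbp7* than of the ligands and receptors. The binding protein gene *Igfbp3* lay below *Igf1*, and *Igfbp2* was hardly detected. Levels of different genes were compared as FPKM, the authors' read counts scaled by gene length and by a factor per rat. Over the 8 rats the highest median was that of *Igfbp7*, at 1275 FPKM (range 1138 to 1451), followed by *Igfbp6* at 707 FPKM (range 518 to 853). *Igfbp7* encodes a secreted protein with weak affinity for IGFs, and *Igfbp6* a binding protein that prefers IGF-II. Next came *Igfbp5* at 413 FPKM (range 213 to 494) and *Igfbp4* at 409 FPKM (range 268 to 475). The IGFBP-5 protein can lodge in the extracellular matrix, and IGFBP-4 is best known as an inhibitor of IGF action. These 2 genes were not distinguishable in level, since *Igfbp5* was above *Igfbp4* in 6 of 8 rats and their ranges overlapped.

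The ligand *Igf1* followed at 79.4 FPKM (range 60.5 to 102), and *Igfbp3*, the main IGF carrier of serum, at 38.3 FPKM (range 29.0 to 52.2). *Igf2* was at 15.7 FPKM (range 9.49 to 23.5) and *Igf2r* at 12.3 FPKM (range 10.7 to 14.7); *Igf2* was the higher in 7 of 8 rats, with overlapping ranges. *Igf1r* had a median of 1.32 FPKM (range 0.990 to 2.04), which was 9.26 times below that of *Igf2r*, and *Igf2r* was higher in all 8 rats. *Igfbp2* was last and was hardly detected. For the neighbors *Igfbp7* and *Igfbp6*, *Igfbp6* and *Igfbp5*, *Igfbp4* and *Igf1*, *Igf1* and *Igfbp3*, *Igfbp3* and *Igf2*, and *Igf2r* and *Igf1r*, the higher gene was above the lower one in every rat without overlap of their ranges.

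**Figure D1:**
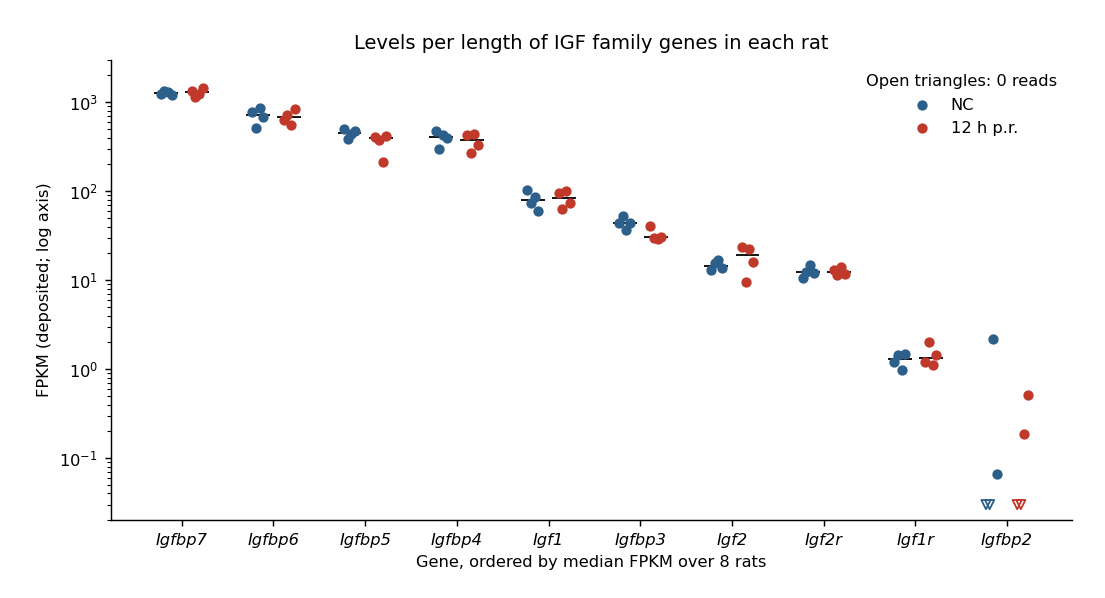
FPKM of the 10 genes in each of the 8 rats on a log axis, NC in blue and 12 hours p.r. in red, with a line at the median of each group where all its rats had reads. The order runs from *Igfbp7* at a median of 1275 FPKM to *Igfbp2*, which had 0 reads in 4 rats (open triangles). The ranges of the 2 groups overlap for each gene, while in *Igfbp3* and *Igfbp5* all 4 running rats lie below the NC median.

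Summed over the family, *Igfbp7* made up between 39.4 and 49.9% of the FPKM of a rat, *Igfbp6* between 19.2 and 27.7%, *Igfbp4* between 10.2 and 16.7%, and *Igfbp5* between 8.10 and 16.3%. *Igf1* made up 2.09 to 3.79% and *Igf1r* at most 0.0777%. The 6 binding protein genes together were at 20.4 to 34.7 times the FPKM of the 2 ligand genes at 12 hours p.r. (28.4 ± 7.20, SD, n = 4 rats) and at 26.3 to 37.7 times in the NC group (30.8 ± 4.88, SD, n = 4), so the groups overlapped. Without *Igfbp7* these ratios were 10.2 to 19.2 and 14.1 to 21.5. *Igf1* exceeded *Igf2* in every rat, by 4.06 to 6.72 times at 12 hours p.r. and by 4.37 to 7.91 times in the NC group. These ratios describe mRNA per length and not the amounts of protein.

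None of the 10 genes changed between 12 hours p.r. and NC at the threshold of the test. Genes with too few counts were removed, which left 13937 genes and 9 of the 10 members, all but *Igfbp2*. With the quasi-likelihood test of edgeR and Benjamini-Hochberg adjustment over all genes tested, 0 of the 9 had an adjusted p value under 0.05 in either direction, where 0.00718% of all genes did. The Wald test of DESeq2 called 0 of the 9 at an adjusted p value under 0.05, against 0.667% of all genes, and gave 1 of the 9, again *Igfbp3*, an unadjusted p value under 0.05, against 9.28% of all genes. At an unadjusted p value under 0.05, 1 of the 9, *Igfbp3*, was lower at 12 hours p.r., against 9.51% of all genes in either direction and 4.08% in this one, so the share among the members was near that of all genes. In 0 of the 9 did the rats of the groups not overlap, against 6.06% of all genes. The 9 log2 fold changes (12 hours p.r. minus NC) had a median of 0.02, as did all genes tested, and 5 were above and 4 below 0. For 6 of the 9 the value was within 0.25 of 0, as it was for 69.7% of all genes.

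The data also bound the size of any change. The 95% interval of the log2 fold change lay within a 2-fold change in both directions for 9 of the 9 members, compared with 79.6% of all genes tested. Within a 1.5-fold change it lay for 5 members, *Igf1*, *Igf2r*, *Igfbp4*, *Igfbp6*, and *Igfbp7* (55.6%), compared with 53.0% of all genes. These intervals are taken gene by gene, without adjustment for their number. They rest on 4 rats per group and on a spread that edgeR draws toward that of other genes. An interval can therefore be narrower or wider than the rats of that gene alone would give.

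**Figure D2:**
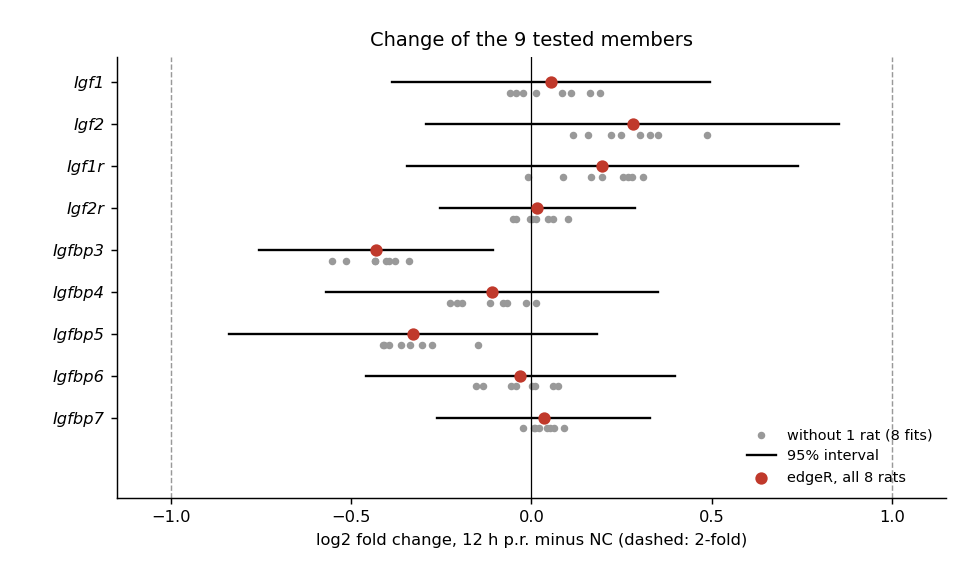
Log2 fold change of the 9 tested members (red points, 12 hours p.r. minus NC) with the 95% interval of edgeR (black lines) and the values of the 8 fits that each leave out 1 rat (gray points). The intervals stay between the dashed lines of a 2-fold change, and that of *Igfbp3*, from −0.76 to −0.11, is the one that does not reach 0.

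Of the ligands, *Igf1* (ENSRNOG00000004517) was at 186, 124, 192, and 142 CPM in 12 hours p.r. replicates 1 to 4 and at 197, 141, 165, and 117 CPM in NC replicates 1 to 4. The groups covered the same range. The means were 161 ± 33.3 CPM (SD, n = 4 rats) and 155 ± 34.1 CPM (SD, n = 4), giving a log2 fold change of 0.05 (standard error, SE, 0.20, 95% interval −0.39 to 0.50, edgeR adjusted p = 0.949). The sign of this value turned to as low as −0.06 when 1 rat was left out. *Igf2* (ENSRNOG00000020369), better known as the fetal growth factor of the pair, was at 134, 53.9, 126, and 91.3 CPM after running and at 72.9, 87.1, 95.8, and 78.3 CPM in the NC group. The running rats spread wider than the NC rats, with replicates 1 and 3 above and replicate 2 below all NC rats. Its log2 fold change was 0.28 (SE 0.25, 95% interval −0.29 to 0.85, edgeR adjusted p = 0.757; 2-sided exact permutation test, p = 0.543). This value rested on single rats: it was 0.12 without 12 hours p.r. replicate 1, 0.16 without replicate 3, and 0.49 without replicate 2, where the unadjusted p was 0.0149 and the edgeR adjusted p 0.440.

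Of the receptors, *Igf1r* (ENSRNOG00000014187) had 440 reads over the 8 rats, between 38 and 72 per rat, and its values carry the most counting error of the 9 tested genes. It was at 5.05, 8.43, 4.52, and 6.01 CPM at 12 hours p.r. and at 4.89, 5.89, 4.08, and 6.12 CPM in the NC group. Replicate 2 of the running group was highest, and the other 7 rats lay between 4.08 and 6.12 CPM. The log2 fold change was 0.20 (SE 0.24, 95% interval −0.35 to 0.74, edgeR adjusted p = 0.825), and without that rat it was −0.01. *Igf2r* (ENSRNOG00000014997) was among the steadiest members, at 116, 101, 124, and 104 CPM after running and at 94.3, 109, 129, and 107 CPM in the NC group. The log2 fold change of this gene was 0.02 (SE 0.12, 95% interval −0.25 to 0.29, edgeR adjusted p = 0.980). Leaving out 1 rat moved this value between −0.05 and 0.10.

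*Igfbp3* (ENSRNOG00000061910), the binding protein that carries most IGF in serum, had the largest absolute log2 fold change of the 9. It was at 98.1, 73.0, 70.0, and 74.7 CPM in 12 hours p.r. replicates 1 to 4 and at 105, 126, 88.1, and 106 CPM in NC replicates 1 to 4. All 4 running rats were below the median of the NC group, and 1 of the 16 pairs of a running and an NC rat, 12 hours p.r. replicate 1 with NC replicate 3, went the other way. The mean was 79.0 ± 12.9 CPM (SD, n = 4 rats) after running and 106 ± 15.6 CPM (SD, n = 4) among NC rats, which is 0.742 times. The log2 fold change was −0.43 (SE 0.14, 95% interval −0.76 to −0.11) with an unadjusted p of 0.0150 and an edgeR adjusted p of 0.437. DESeq2 gave an unadjusted p of 0.00617 and an adjusted p of 0.237, and the 2-sided exact permutation test over rats gave p = 0.0571, where 4 rats against 4 allow no less than 0.0286.

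The 2 rats of this crossing pair were the ones with the highest cartilage and bone markers, 1 in each group. Without both of them the log2 fold change of *Igfbp3* was −0.64, with an edgeR adjusted p of 0.528. Since they form the crossing pair, leaving them out had to enlarge the difference and part the groups, so this value adds no support (in that fit 14.1% of all genes had no overlap). When single rats were left out, the value ran from −0.55 to −0.34, the unadjusted p from 0.00284 to 0.0447, and the adjusted p stayed above 0.05 in all 8 fits. In bulk tissue, fewer cells that express a gene and less of its RNA per cell cannot be told apart, here or for any other member.

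*Igfbp5* (ENSRNOG00000017206) took the most reads of the family, 193735 over the 8 rats. It was at 2440, 2230, 1250, and 2450 CPM at 12 hours p.r. and at 2900, 2250, 2580, and 2770 CPM in the NC group. All 4 running rats were below the NC median, and replicate 3 was well below the other 3. The log2 fold change was −0.33 (SE 0.23, 95% interval −0.84 to 0.18, edgeR adjusted p = 0.678; 2-sided exact permutation test, p = 0.114). Without 12 hours p.r. replicate 3 it was −0.15. That rat also had the highest skeletal muscle and the lowest tenocyte markers, and with a skeletal muscle score (the mean log2 CPM of the muscle markers) as a covariate *Igfbp5* was at −0.31 (unadjusted p = 0.122).

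*Igfbp4* (ENSRNOG00000010635) was at 937, 588, 959, and 730 CPM after running and at 1030, 650, 926, and 859 CPM in the NC group, giving a log2 fold change of −0.11 (SE 0.20, 95% interval −0.57 to 0.35, edgeR adjusted p = 0.894). Each group held 1 low rat, replicate 2 in both. *Igfbp6* (ENSRNOG00000010977) was at 692, 782, 596, and 896 CPM and at 821, 556, 916, and 736 CPM, with overlapping groups and a log2 fold change of −0.03 (SE 0.19, 95% interval −0.46 to 0.40, edgeR adjusted p = 0.974). *Igfbp7* (ENSRNOG00000002050), the most abundant member per length, was at 1510, 1260, 1380, and 1610 CPM and at 1370, 1490, 1440, and 1330 CPM. Its log2 fold change was 0.03 (SE 0.13, 95% interval −0.26 to 0.33, edgeR adjusted p = 0.952).

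*Igfbp2* (ENSRNOG00000016957) had 47 reads in all and was not tested. The NC rats held 0, 0, 37, and 1 reads and the 12 hours p.r. rats 0, 0, 2, and 7 reads, so 37 of the reads came from NC replicate 3, the rat with the highest cartilage and bone markers. This was 2.79 CPM in that rat, while a count of 0 in NC replicate 1 allows up to 0.240 CPM and in 12 hours p.r. replicate 2 up to 0.395 CPM (3 counts, counting error only). *Igfbp1*, a liver-enriched family member outside the 10 genes, had 2 reads. Among the protein-coding genes of the RefSeq annotation of the rat genome GRCr8, *Igfbp2* is the direct neighbor of *Igfbp5*, and *Igfbp1* that of *Igfbp3*. In both neighbor pairs 1 gene was well expressed in the tendon and the other was at or near the limit of detection.

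**Figure D3:**
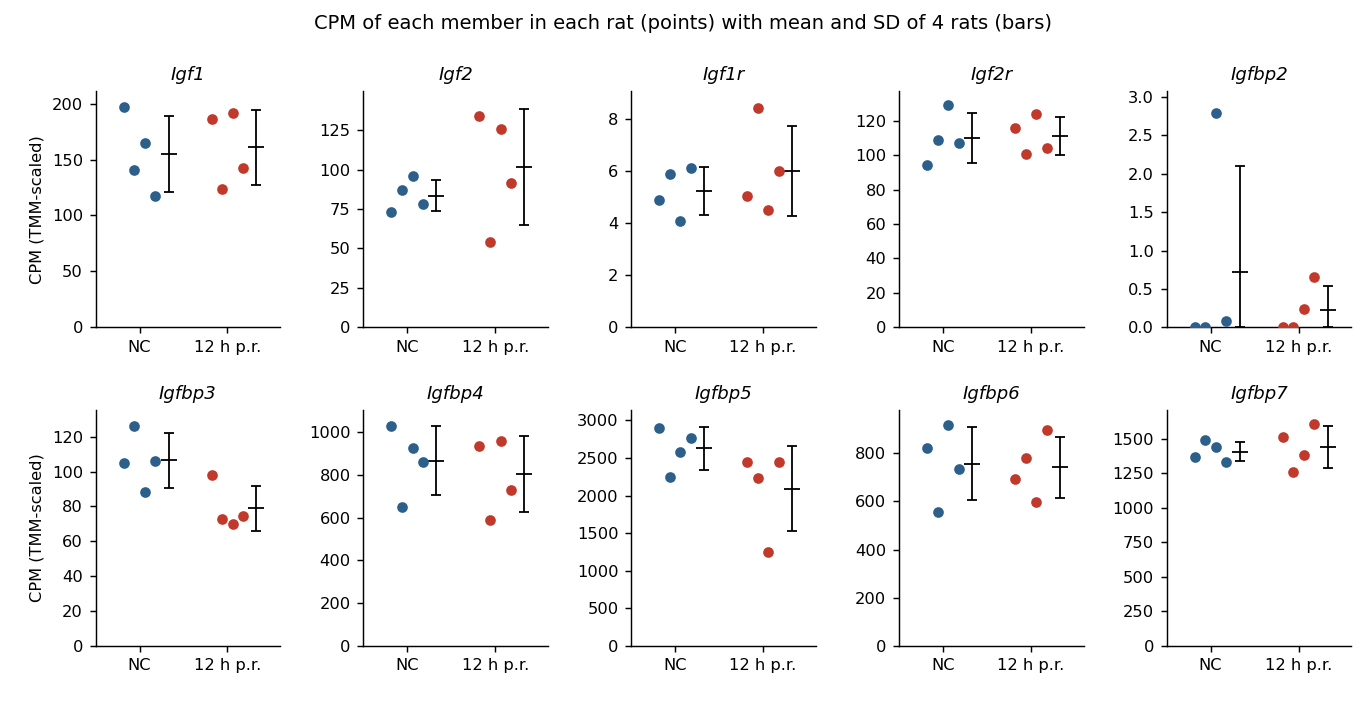
CPM (read counts scaled to a common library size with TMM factors) of the 10 genes in each rat, NC in blue and 12 hours p.r. in red, with the mean and SD of 4 rats as a bar beside the points; the bars of *Igfbp2* are cut at 0. *Igfbp3* is the gene with most separation, at 70.0 to 98.1 CPM after running and 88.1 to 126 CPM in the NC group, and for each gene the groups overlap.

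The promoter of *Igfbp3*, the member with the largest difference, is shown beside those of *Igfbp4* and *Igfbp7*, which are well expressed and differed by at most 0.11 on the log2 scale, to let the 3 be compared. The sequences are the 250 bases before the RefSeq start of each gene in GRCr8, which is another build than the one the reads were aligned to, written 5′ to 3′ along the gene. Capitals mark the TATA box letters TATAAA, the variant with the letters TATATA, and the GC box GGGCGG, each searched on both strands, and no matches overlapped in these 3 windows.
Igfbp3, chr14:86277945-86278194, minus strand: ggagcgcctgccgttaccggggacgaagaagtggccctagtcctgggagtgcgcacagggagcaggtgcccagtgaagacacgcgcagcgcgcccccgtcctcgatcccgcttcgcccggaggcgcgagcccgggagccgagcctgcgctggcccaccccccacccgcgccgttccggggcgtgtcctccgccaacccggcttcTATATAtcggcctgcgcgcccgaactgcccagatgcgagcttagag
Igfbp4, chr10:84491221-84491470, plus strand: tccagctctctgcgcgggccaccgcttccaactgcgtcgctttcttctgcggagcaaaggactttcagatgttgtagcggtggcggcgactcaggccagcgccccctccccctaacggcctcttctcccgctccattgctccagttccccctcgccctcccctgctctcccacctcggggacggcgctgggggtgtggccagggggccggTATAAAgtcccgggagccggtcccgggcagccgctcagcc
Igfbp7, chr14:31091486-31091735, plus strand: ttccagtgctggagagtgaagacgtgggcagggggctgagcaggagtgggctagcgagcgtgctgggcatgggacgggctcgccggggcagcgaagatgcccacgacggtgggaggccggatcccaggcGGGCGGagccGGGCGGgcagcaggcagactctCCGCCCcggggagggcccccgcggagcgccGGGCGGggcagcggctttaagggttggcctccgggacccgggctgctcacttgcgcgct
In *Igfbp3* the capitals are a single TATATA that begins 46 bases before the start, a match found in 5.45% of all 33469 promoter windows of this length. *Igfbp4* has a TATAAA that begins 40 bases before the start, and 12.9% of windows hold these letters. In *Igfbp7* neither TATATA nor TATAAA was found, and 4 GC boxes begin 121, 111, 89, and 59 bases before the start. At least 1 GC box lies in 30.5% of windows. These shares count a match at any position of the window and on either strand. The CpG dinucleotides of the windows numbered 31 in *Igfbp3*, 21 in *Igfbp4*, and 26 in *Igfbp7*, where the median window has 5. Matched letters describe the window and say nothing of which factors bind there. Promoter windows were found for all 10 members, and a GC box lies in 5 of their 11 windows (*Igf2* has 2 starts).

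The members did not vary as 1 block among the rats. Within the groups the SD of log2 CPM was smallest in *Igfbp7* (0.12) and *Igf2r* (0.17) and largest in *Igf2* (0.44), against a median of 0.24 over all genes tested. It was 0.31 in *Igf1*, 0.33 in *Igf1r*, 0.31 in *Igfbp4*, 0.35 in *Igfbp5*, 0.28 in *Igfbp6*, and 0.22 in *Igfbp3*. This SD depends on the level, and against the median of genes within 0.5 of the same log2 CPM, *Igf2* (0.16), *Igf1* (0.17), *Igfbp4* (0.22), *Igfbp6* (0.20), and *Igfbp3* (0.16) varied more, *Igfbp7* (0.26) less, and *Igf1r* (0.35), *Igf2r* (0.16), and *Igfbp5* (0.35) about as much. In the running group, replicates 1 and 3 were the 2 highest rats and replicate 2 the lowest in *Igf1*, *Igf2*, *Igf2r*, and *Igfbp4*, and *Igf1r* had the opposite order.

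**Figure D4:**
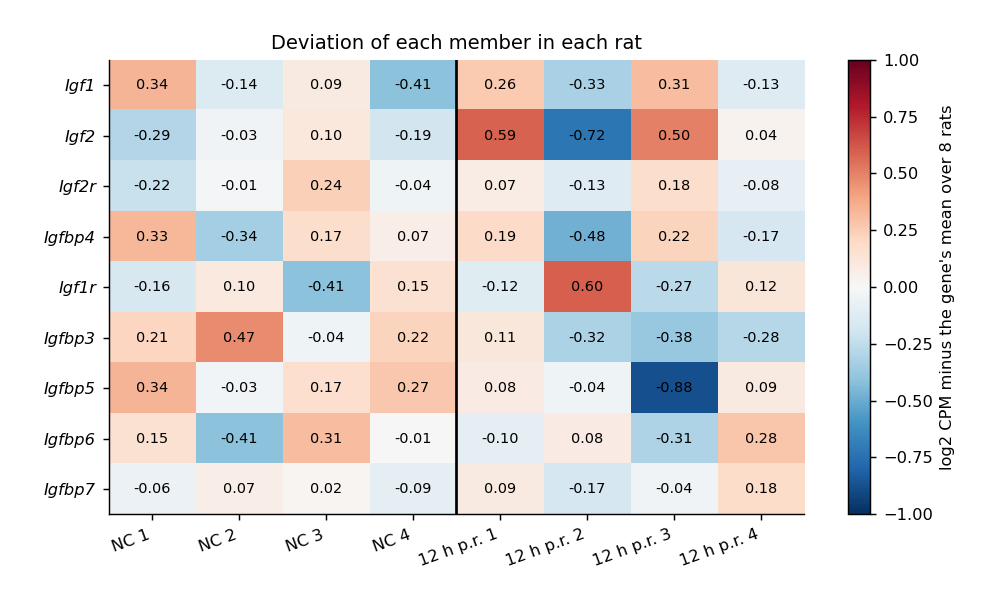
Log2 CPM of the 9 tested members in each rat minus the mean of that gene over the 8 rats, in color and in figures, with NC rats left of the line and 12 hours p.r. rats right of it. *Igf2* runs from −0.72 to 0.59 within the running group, *Igfbp5* is at −0.88 in 12 hours p.r. replicate 3, and *Igfbp7* stays between −0.17 and 0.18.

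All 36 pairs of the 9 members were then compared across the 8 rats, a comparison chosen after these values were seen. An exact permutation test gave 4 pairs an unadjusted p value under 0.05 by Pearson's r and 4 by Spearman's rho, and 0 pairs an adjusted p value under 0.05 by either. The strongest by Pearson's r was *Igf1r* with *Igfbp4*, with r = −0.84 (exact permutation p = 0.00702, adjusted p = 0.253) and rho = −0.74 (exact permutation p = 0.0458, adjusted p = 0.412), and with r = −0.76 without the 2 rats farthest from the median of *Igf1r*. *Igf1* and *Igfbp4*, a ligand and an inhibitory binding protein, gave r = 0.74 (exact permutation p = 0.0431, adjusted p = 0.367) and rho = 0.86 (exact permutation p = 0.0107, adjusted p = 0.335). Without the 2 rats farthest from the median of *Igf1* this r was 0.96, and with each group centered on its own mean it was 0.79. *Igf1* and its receptor gene *Igf1r* gave r = −0.77 (exact permutation p = 0.0213, adjusted p = 0.367) and rho = −0.79 (exact permutation p = 0.0279, adjusted p = 0.335), with r = −0.84 without those 2 rats and −0.84 within groups. The groups are too small for a value in each.

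The genes whose pattern over the 8 rats was most like a member were found by the root mean square difference of log2 CPM, each gene centered on its own mean. For *Igfbp3* these were *Slc25a32* (0.06) and *Rbm15* (0.09). For *Igfbp5* they were *Itgbl1* (0.08), an extracellular integrin-like protein gene, and *Cxcl16* (0.10), and for *Igfbp6* the complement protease gene *C1r* (0.07) and the tetraspanin gene *Cd63* (0.08). *Igf1* was closest to *Cgnl1* (0.06), a tight junction protein gene, and the vasopressin receptor gene *Avpr1a* (0.10), while *Igf2* was closest to *Cyb5d2* (0.08) and to the linker histone gene *H1fx* (0.15). *Igf1r* had *Klhl36* (0.09) and *Tgif1* (0.11), *Igf2r* had *Polr3a* (0.05) and *Tmem63b* (0.06), *Igfbp4* had *Shld1* (0.09) and *Mipep* (0.10), and *Igfbp7* had *Sars* (0.05) and *Apeh* (0.05). No member was among the 2 closest genes of another, which says little with 13937 genes to pick from. With so many genes and 8 rats, close matches arise without any link, and these matches were not tested. The difference also depends on how much a gene varies, with an SD over the 8 rats of 0.10 in *Igfbp7* and 0.40 in *Igf2*.

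Other genes of the IGF axis were followed in 4 lists of 60 names, of which 51 were tested. No listed gene had an adjusted p value under 0.05 with edgeR or with DESeq2. At an unadjusted p value under 0.05, 7 were higher and 2 lower at 12 hours p.r., where 5.44% of all genes were higher and 4.08% lower. The number of the 2 directions together fell from 9 to 4 without NC replicate 4 and was between 6 and 10 in the other fits without 1 rat, while the share of all genes fell from 9.51% to 6.28% without NC replicate 4. With the skeletal muscle score as a covariate the number was 12, against 9.97% of all genes. Over the 51 genes the median log2 fold change was 0.09, beside 0.02 over all genes tested.

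Most of these were genes of signaling downstream of the receptor, with 33 of 34 listed names tested, 21 above and 12 below 0, and a median log2 fold change of 0.10. Values with an unadjusted p under 0.05 were above 0 for 6 genes and below 0 for 1. *Mapk3*, the gene of the kinase ERK1, was at 168, 156, 161, and 188 CPM after running and at 146, 126, 139, and 128 CPM in the NC group. The groups did not overlap, and the log2 fold change was 0.32 (SE 0.10, edgeR adjusted p = 0.433). Among the tested genes of the IGF axis lists, only *Mapk3* and *Pik3ca* had groups without overlap. Over all genes tested, 6.06% had groups without overlap in either direction. Both genes were named for their small p values, so their separation adds no support. *Pik3ca*, which encodes a catalytic subunit of PI3K, was at 66.1, 63.0, 65.9, and 65.1 CPM after running, below all NC rats at 75.7, 96.3, 73.1, and 77.1 CPM, with a log2 fold change of −0.31 (SE 0.10, edgeR adjusted p = 0.433). *Akt1*, the gene of a kinase activated downstream of PI3K, was at 210 ± 18.3 CPM (SD, n = 4 rats) and 174 ± 12.3 CPM (SD, n = 4), giving a log2 fold change of 0.27 (SE 0.10, edgeR adjusted p = 0.478).

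The other 4 were *Akt2*, *Pdpk1*, *Foxo4*, and *Pik3r2*, named because they passed the unadjusted threshold. Their log2 fold changes were 0.41, 0.41, 0.57, and 0.24, with edgeR adjusted p values of 0.518, 0.498, 0.511, and 0.497. *Akt1*, *Akt2*, *Pdpk1*, and *Foxo4* were each highest in 12 hours p.r. replicate 3, the rat with the most skeletal muscle marker RNA, and without it their log2 fold changes were 0.22, 0.28, 0.32, and 0.23, with unadjusted p values of 0.0616, 0.121, 0.102, and 0.0631. *Pik3r2*, which was highest in another rat, was at 0.24 without it, with an unadjusted p of 0.0600. With the skeletal muscle score as a covariate the log2 fold changes of *Akt1*, *Akt2*, *Pdpk1*, and *Foxo4* were 0.25, 0.36, 0.39, and 0.45. Their unadjusted p values were 0.0245, 0.00581, 0.0474, and 0.0388 in this edgeR fit, where *Pik3r2* was at 0.24 with an unadjusted p of 0.049. *Foxo4*, a transcription factor gene restrained by AKT, was at 108 CPM in that rat and at 50.4 to 56.0 CPM in the other running rats. *Mapk3* and *Pik3ca* kept log2 fold changes of 0.34 and −0.31 without this rat, with unadjusted p values of 0.0107 and 0.0210.

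**Figure D5:**
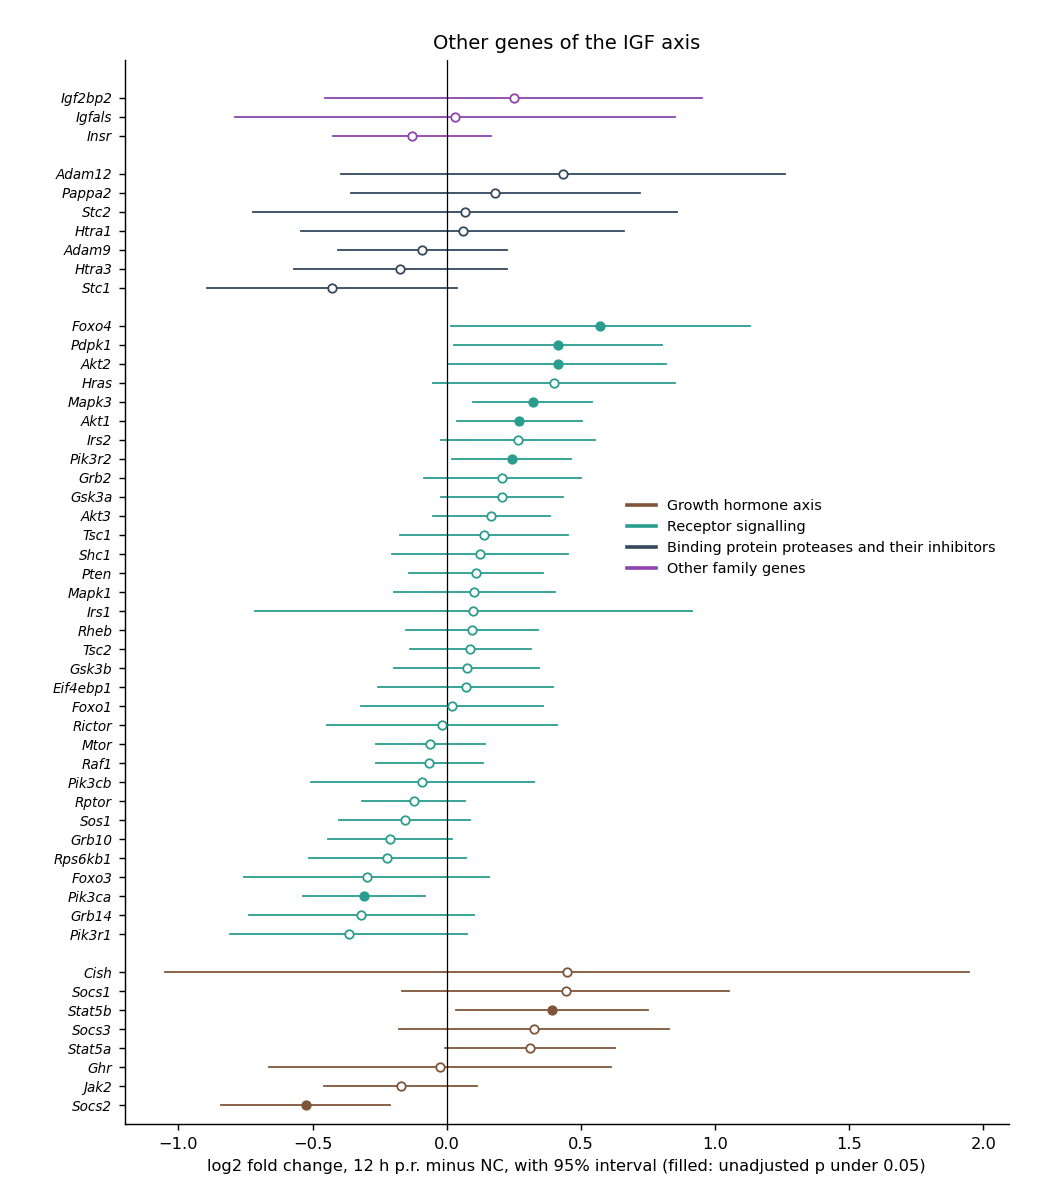
Log2 fold change (12 hours p.r. minus NC) with the 95% interval of edgeR for the 51 tested genes of the 4 IGF axis lists, colored by list; filled points have an unadjusted p value under 0.05. *Socs2* is at −0.53 and *Foxo4* at 0.57, and none of the 51 passed the adjusted threshold.

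All 8 genes of the growth hormone axis, which drives *Igf1* transcription in liver and other tissues, were tested, with 5 above and 3 below 0. *Socs2*, a feedback inhibitor of growth hormone receptor signaling, had the smallest p of the 4 lists. It was at 21.9, 28.9, 23.4, and 24.3 CPM at 12 hours p.r. and at 28.2, 39.9, 33.7, and 40.1 CPM in the NC group, where 1 running rat lay just above the lowest NC rat. The log2 fold change was −0.53 (SE 0.14, 95% interval −0.84 to −0.21, unadjusted p = 0.00437, edgeR adjusted p = 0.426, DESeq2 adjusted p = 0.115). It ran from −0.62 to −0.46 with 1 rat left out. *Stat5b* and *Stat5a*, the transcription factor genes that act under this receptor, had log2 fold changes of 0.39 (SE 0.16, edgeR adjusted p = 0.494) and 0.31 (SE 0.14, edgeR adjusted p = 0.531). Both were highest in 12 hours p.r. replicate 3, and without that rat these values were 0.22 and 0.24.

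Of the proteases that cleave binding proteins and the inhibitors of these proteases, 7 of 9 listed genes were tested, with 4 above and 3 below 0, and 0 had an unadjusted p value under 0.05. *Stc1*, the gene of the hormone stanniocalcin-1, was at 15.8 ± 4.37 CPM (SD, n = 4 rats) after running and 21.3 ± 3.18 CPM (SD, n = 4) among NC rats, giving a log2 fold change of −0.43 (SE 0.21, edgeR adjusted p = 0.553). *Adam12*, a metalloprotease gene, and *Htra3*, a serine protease gene, had log2 fold changes of 0.43 (SE 0.37) and −0.17 (SE 0.18). With 1 rat left out, *Stc1* ran from −0.59 to −0.28, *Adam12* from 0.16 to 0.74, and *Htra3* from −0.33 to −0.06. *Pappa* was not analysed here.

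Among other family genes, 3 of 9 listed names were tested and 0 had an unadjusted p value under 0.05. The insulin receptor gene *Insr* was at 32.6 ± 5.93 CPM (SD, n = 4 rats) after running and 35.7 ± 1.64 CPM (SD, n = 4) among NC rats, giving a log2 fold change of −0.13 (SE 0.13, edgeR adjusted p = 0.778). *Igf2bp2*, which encodes an RNA-binding protein of *Igf2* mRNA, and *Igfals*, which encodes the acid-labile subunit of the serum IGF complex, were at low levels. Their log2 fold changes were 0.25 (SE 0.31) and 0.03 (SE 0.36). With 1 rat left out, *Insr* ran from −0.24 to −0.03, *Igf2bp2* from 0.09 to 0.39, and *Igfals* from −0.27 to 0.22.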

How the data were processed

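Messenger RNA of the right Achilles tendon of 8 rats was sequenced as stranded polyadenylate libraries. Per the submitters' processing notes, HISAT2 2.1.0, featureCounts 1.6.3, and the build Rnor_6.0 were used, and the counts deposited by the authors are integers, not normalized, for Ensembl genes. Whether the counting used the strand, and how reads that match several genes were treated, is not given in the sources used here. The authors also deposited FPKM, which equaled counts divided by 1 length per gene and by the DESeq2 size factor of each rat (to within a relative difference of 4.42e-06 over 2000 genes). A table of the comparison by the authors, made with DESeq2 1.30.1, holds log2 fold changes, p-values and FPKM and was not used.

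From the counts, filterByExpr of edgeR 4.0.16 kept 13937 genes, TMM factors were computed, and 12 h p.r. was compared with NC by the quasi-likelihood test (glmQLFit, glmQLFTest), and p values were adjusted over these genes after Benjamini and Hochberg. Standard errors and 95% intervals came from its F statistic. CPM used TMM-scaled library sizes. Exact permutation tests used log2(CPM + 0.5) over the 70 splits of the rats, 2-sided, and log2 CPM with a prior count of 2 over the 40320 pairings for correlations. The fits were tested on simulated counts. DESeq2 1.42.0, limma 3.58.1 on FPKM, other scaling and filters, a replicate block, a muscle score and leaving out rats were tried as alternatives. R 4.3.3 and Python 3.11.15 were used. No 2 libraries of a group agreed within sampling noise. The edgeR p values weigh a difference between the groups against the spread between these rats, drawn toward that of other genes. The permutation p values rank the observed value among all splits or pairings of these rats.

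The members, lists and tests were chosen with earlier results of these data known. Named were the 10 members, for each member the 2 genes with the most similar pattern, and from each list any gene with an adjusted p under 0.05 and the 3 with the smallest p; *Pik3r2*, *Pdpk1*, *Akt2*, and *Foxo4* were added after their values were seen. Promoters were taken from RefSeq (GRCr8), and no other coordinates are given, as that build differs from Rnor_6.0. At the smallest depth, 1 CPM is about 7.4 reads.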

Additional observations from a re-analysis of the deposited data

Results flagged for a closer look

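In each group of 4 rats, the members, the named list genes and 3 ratios of FPKM were screened for a single rat apart from its group by Dixon's criterion at the 0.05 level. Of 50 groups, 5 held such a rat, where about 2.5 are given by chance. *Igfbp2* was at 2.79 CPM in NC replicate 3, while the other NC rats reached no more than 0.0850 CPM. *Igfbp3* was at 98.1 CPM in 12 h p.r. replicate 1, against 70.0 to 74.7 CPM in the other running rats. Both are the rats with the highest cartilage and bone markers of their group, and the part of these tissues in the values was not tested. *Insr* was at 33.3 CPM in NC replicate 1, below 36.2 to 36.8 CPM in the others, a small gap in a narrow range. *Pik3ca* was at 96.3 CPM in NC replicate 2, against 73.1 to 77.1 CPM. The ratio of *Igf2r* to *Igf1r* in FPKM was 14.8 in NC replicate 3, against 8.15 to 9.0 in the other NC rats.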

How the results depend on the processing

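Under 16 alternatives, no member and no listed gene reached an adjusted p value under 0.05. *Igfbp3*, *Igfbp5*, and *Igf2* kept their direction in all 16, and 129 of 144 log2 fold changes of the 9 tested members did so; the 15 that changed sign belong to genes within 0.20 of 0. With 1 rat left out, the log2 fold change ran from −0.059 to 0.19 for *Igf1*, from −0.0086 to 0.31 for *Igf1r*, from −0.051 to 0.10 for *Igf2r*, from −0.23 to 0.014 for *Igfbp4*, from −0.15 to 0.073 for *Igfbp6*, and from −0.023 to 0.091 for *Igfbp7*. With the muscle score as a covariate *Igf2r* was at −0.0089, and without both rats high in cartilage and bone markers *Igfbp6* was at 0.10. The number of members with an unadjusted p value under 0.05 was 1 in 15 alternatives, and 1 to 2 with 1 rat left out (2, with *Igf2*, without 12 h p.r. replicate 2), where 6.28 to 11.1% of all genes were. Members without overlap numbered 0 to 1 with 1 rat left out, against 7.57 to 11.1% of all genes. These were *Igfbp3* without 12 h p.r. replicate 1 or NC replicate 3, and *Igfbp5* without NC replicate 2. Without both rats high in cartilage and bone markers the number was 1, *Igfbp3*, against 14.1% of all genes. The block and the covariate give no such number. Listed genes with an unadjusted p value under 0.05 numbered 4 to 10 with 1 rat left out, and 12 with the muscle score as a covariate. The median ratio of binding protein to ligand FPKM was 29.6, and 16.3 when *Igfbp7* was not counted, since that gene alone holds much of the sum. The order of levels kept 8 to 10 of 10 places with 1 rat left out, as *Igfbp4* and *Igfbp5* traded places. The replicate numbers belong to different rats in each group. Same-numbered rats correlated in their deviations at −0.19 to 0.12, and 1 of 4 correlated best with its own number. So few correlations cannot exclude that same-numbered rats were handled together. With the number as a replicate block, *Igfbp3* was at −0.43 (edgeR adjusted p = 0.698) and 0 members were called. The genes called over the whole table went from 1 to 0 in that fit. Depth limits *Igf1r*, with 38 to 72 reads per rat, and *Igfbp2*.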
